A study of Mus musculus with 4 samples.

Results

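Collagen transcripts were followed through the first days of testis development in the mouse. Membership was set by symbol alone (Col, a number, the letter a, a number). The family itself was chosen with earlier results of these data known. A table of RefSeq genes (assembly GRCm38.p6) holds 44 such symbols, and 38 of them were matched to at least 1 array probe by RefSeq accession. Of these, 34 passed a filter for brightness, out of 21986 genes tested in all. A gene passed where 1 or more stages had both arrays marked by the scanner software as well above background for a probe of it, and 33 of the 34 collagen genes were above background on all 8 arrays. The exception was Col4a3, which was above background on 7. Col10a1, Col19a1, Col28a1 and Col6a6 had a probe but did not pass, and Col6a3, Col6a4, Col6a5, Col12a1, Col20a1 and Col22a1 had no matched probe.

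Collagens are secreted or membrane-bound proteins in which chains wind into a triple helix, and they are sorted by the structures they build. Fibrillar collagens form the cable-like fibrils of connective tissue, FACIT collagens (fibril-associated collagens with interrupted triple helices) sit on the surface of those fibrils, and type IV collagen forms the sheet of the basement membrane. In the fetal testis, Sertoli cells and the peritubular cells around them lay down a basement membrane that encloses the testis cords, while fibroblast-like cells of the interstitium and the capsule make fibrillar collagen.

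The tissue was the whole gonad of wild-type male embryos of the mouse line MCH, collected on embryonic day 12.5, 13.5, 14.5 or 15.5 (written E12.5 and so on), with no treatment and no mutant group. Each stage had 2 arrays, described in the series text as biological duplicates. The sources used here do not say how many embryos went into an array. Total RNA was amplified into Cy3-labelled cRNA and hybridised to one-colour Agilent arrays. Values are log2 of the background-subtracted signal relative to the 75th percentile of the same array, so a value of 0 is the signal at that percentile. Changes are differences between stage means on this log2 scale. A value after ± is the standard error from limma, a linear model fitted to all genes tested, and n = 2 arrays per stage. A gene is called where its Benjamini-Hochberg adjusted p is under 0.05, and each p sets a difference against how far duplicate arrays lie apart.

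Between 60.3% and 69.8% of probes were well above background per array. The arrays were spread over 3 slides. The first arrays of E12.5 and E13.5 shared slide 1, their second arrays shared slide 2, and the 4 arrays of the later stages, E14.5 and E15.5, shared slide 3, which was read in a separate scan session. The steps from E12.5 to E13.5 and from E14.5 to E15.5 can therefore be compared within slides. The middle step, E13.5 to E14.5, and the whole span from E12.5 to E15.5 run across slides, and there stage and slide cannot be told apart. On slide 3, array 1 of E14.5 and array 2 of E15.5 deviated from their stage means in the same direction. Deviations of array 1 at E14.5 and at E15.5 correlated at r = -0.59 across all genes tested and at r = -0.85 across the 34 collagen genes, which are not independent replicates. All 9 Sertoli cell markers and all 7 interstitial progenitor markers were above background on both arrays of every stage. All 7 germ cell markers were too at E12.5, E13.5 and E14.5, and 6 of 7 were at E15.5.

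From E12.5 to E15.5, 19 of the 34 collagen genes changed, 15 upward and 4 downward. Among all genes tested, 34.8% were called in this comparison, 17.9% higher and 17% lower. The median collagen change was 0.55, beside -0.06 over all genes tested. The collagen changes ran from -3.42 for Col9a1 to 2.14 for Col17a1. Genes that rose included the main fibril chains Col1a1 and Col3a1, the microfibril chains Col6a1 and Col6a2 and the membrane-spanning Col13a1 and Col17a1. Those that fell were Col9a1, Col9a2, Col18a1 and Col4a6. Because whole gonads were measured, a change in the share of cells that express a gene and a change in the RNA per cell cannot be told apart. A test over all stages (the F test of limma, Benjamini-Hochberg adjusted) called 18 of the 34, against 30.9% of all genes tested.

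Leaving out each array in turn gave 15 to 22 whole-span calls among the 34. With normexp, a model-based background correction, in place of the scanner software's own, 9 of the 34 were called. In that setting 3 spots of very high background set the fit of 1 array, and 21 of the 34 were called once those spots were replaced, an alternative chosen after seeing the data. The calls of 8 genes held whichever array was left out and under every other alternative tried. These were Col1a1, Col6a1, Col6a2, Col8a2, Col13a1 and Col16a1, which rose, and Col9a1 and Col9a2, which fell. Apart from Col1a1 and Col13a1, each had 1 probe above the filter, so averaging a gene's probes could not alter its call. None of the alternatives can tell stage from slide over this span.

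**Figure D1:**
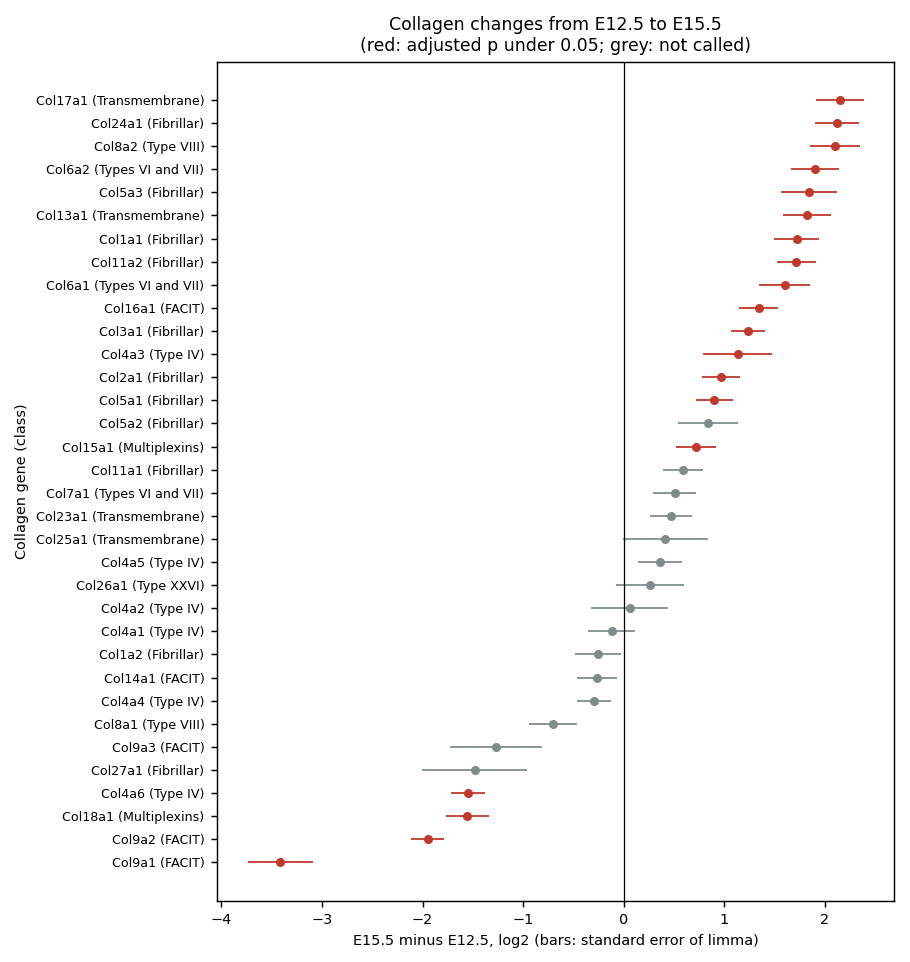
Change of each of the 34 collagen genes from E12.5 to E15.5 (x axis, log2 difference of stage means; bars are limma's standard error, n = 2 arrays per stage), sorted by size, with the structural class in brackets. Red points are the 19 called genes and grey points the 15 that were not called; Col9a1 stands lowest at -3.42 and Col17a1 highest at 2.14.

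Among the 11 fibrillar collagen genes, 7 rose over the whole span and 0 fell, with a median change of 0.96. Of all genes tested, 17.9% were called higher and 17% lower. Col2a1, Col11a2 and Col5a1, counted among the 7, each had a second probe that moved the other way. Col1a1 encodes the more abundant chain of type I collagen, the main fibril protein of skin, bone and capsule. Its log2 values were 4.38 and 4.89 at E12.5, 4.94 and 5.12 at E13.5, 5.73 and 5.76 at E14.5, and 6.26 and 6.45 at E15.5. Every later stage lay above the one before, with no overlap between the arrays of any stages. The rise was 1.72 ± 0.22, or 3.29-fold (limma, adjusted p = 0.0023). Col1a2 encodes the partner chain that joins Col1a1 in the same trimer. Its values were 6.08 and 6.57 at E12.5, 6.44 and 6.58 at E13.5, 5.82 and 6.09 at E14.5, and 6.11 and 6.04 at E15.5. The E12.5 and E15.5 arrays of Col1a2 overlapped, and the change was -0.26 ± 0.23 (limma, adjusted p = 0.41), so the partner chain was not called.

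Col3a1 encodes type III collagen, a fibril of stretchable tissues built from 1 kind of chain. Its values were 5.08 and 5.20 at E12.5, 5.47 and 5.39 at E13.5, 6.11 and 6.08 at E14.5, and 6.29 and 6.45 at E15.5. The rise was 1.23 ± 0.17 over the span (limma, adjusted p = 0.0028), and no array of a later stage overlapped an earlier one. Col5a1, Col5a2 and Col5a3 encode chains of type V collagen, which starts fibrils and limits their width. For Col5a3 the values were -2.03 and -2.77 at E12.5, -2.80 and -3.09 at E13.5, -1.52 and -1.75 at E14.5, and -0.48 and -0.65 at E15.5. Both E13.5 arrays lay below both E12.5 arrays, and the 4 later arrays lay above all 4 earlier ones. Col5a3 rose by 1.84 ± 0.28 over the span, and Col5a1 rose by 0.90 ± 0.18. Col5a2, which lies next to Col3a1 on chromosome 1, differed by 0.84 ± 0.30, which was not called (limma, adjusted p = 0.072).

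Col2a1 encodes type II collagen, the fibril of cartilage, and Col11a1 and Col11a2 encode chains of type XI, which lies inside cartilage fibrils. Col2a1 read 1.77 and 1.93 at E12.5, 1.85 and 1.63 at E13.5, 2.35 and 2.34 at E14.5, and 2.71 and 2.93 at E15.5. The E14.5 and E15.5 arrays lay above all earlier arrays, and the rise over the span was 0.96 ± 0.19 (limma, adjusted p = 0.0097). Col11a2 read -3.49 and -3.29 at E12.5, -3.29 and -3.47 at E13.5, -2.47 and -2.53 at E14.5, and -1.54 and -1.82 at E15.5. The E12.5 and E13.5 arrays overlapped, both later stages lay above them, and E15.5 lay above E14.5, with a rise of 1.71 ± 0.19 over the span (limma, adjusted p = 0.0013). Col11a1 changed by 0.59 ± 0.20 and was not called. A second probe of Col2a1 and of Col11a2 moved the other way, as given with the probes below.

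Cartilage markers were examined beside these genes. Of 8 listed, 4 passed the filter, 0 of them were called in any of the 4 comparisons, Matn1 and Matn3 did not pass, and Cytl1 and Snorc had no matched probe. The summed level of the 4, each as signal divided by the array's 75th percentile, was 0.818 to 0.881 at E12.5 and 0.744 to 0.766 at E15.5. Acan, the aggrecan core protein of cartilage, was above background on both arrays of every stage and changed by 0.46 ± 0.22 over the span, which was not called. Col10a1, the collagen of hypertrophic cartilage, was above background on 1 of the 8 arrays.

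The remaining fibrillar genes are the minor types XXIV and XXVII. Col24a1 read -4.44 and -4.37 at E12.5, -3.62 and -4.12 at E13.5, -3.04 and -3.0 at E14.5, and -2.37 and -2.21 at E15.5. Its arrays did not overlap between any stages, and it rose by 2.12 ± 0.22, or 4.34-fold (limma, adjusted p = 0.00094). Col27a1 moved by -1.48 ± 0.52 and was not called. It had the widest gap between duplicates of any collagen gene at E14.5 (1.42) and at E15.5 (1.11), with array 1 lower at E14.5 and array 2 lower at E15.5.

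**Figure D2:**
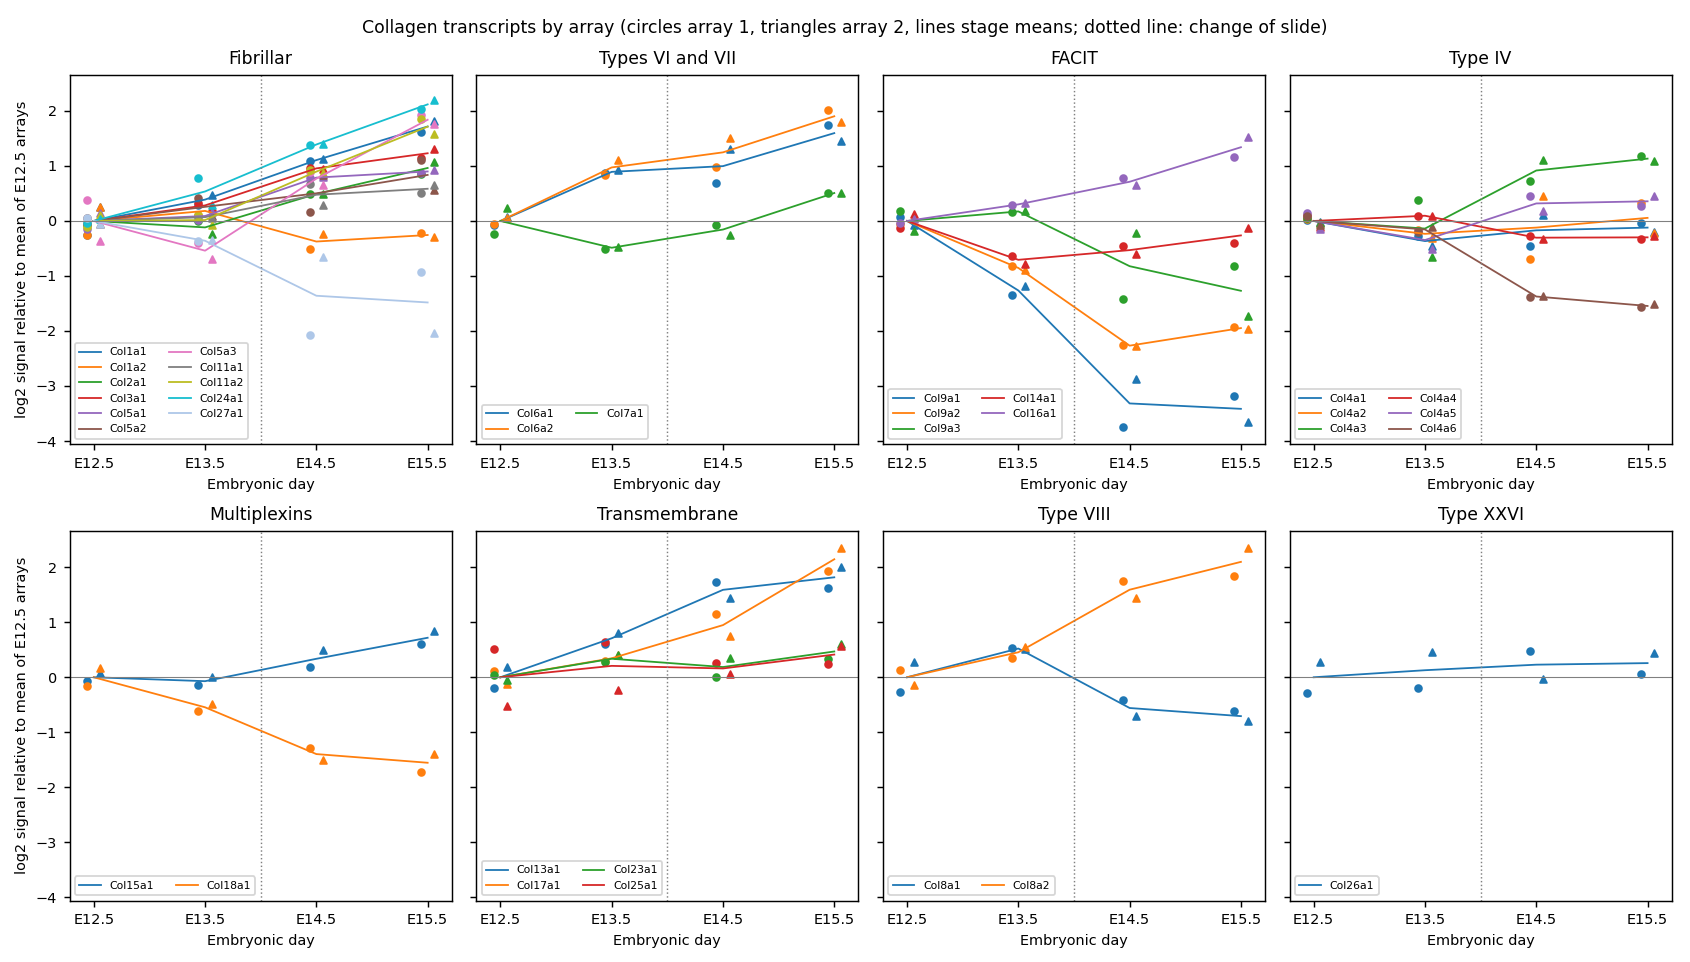
Values of the 34 collagen genes on each of the 8 arrays by structural class (y axis, log2 signal minus the mean of the 2 E12.5 arrays; x axis, embryonic day). Circles are array 1, triangles array 2 and lines stage means; the dotted line marks the change of slide. Col9a1 and Col9a2 run downward and Col6a1 and Col6a2 upward from E12.5 to E13.5, before the change of slide.

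Types VI and VII were represented by 3 genes. Type VI collagen forms beaded microfibrils around cells, and Col6a1 and Col6a2 encode 2 of its chains. Col6a1 read 1.18 and 1.34 at E12.5, 2.13 and 2.18 at E13.5, 1.95 and 2.57 at E14.5, and 3.0 and 2.71 at E15.5. Col6a2 read 0.03 and 0.13 at E12.5, 0.92 and 1.19 at E13.5, 1.06 and 1.60 at E14.5, and 2.09 and 1.88 at E15.5. Both genes were higher on every array after E12.5 than on the E12.5 arrays. Col6a1 rose by 1.60 ± 0.25, or 3.02-fold (limma, adjusted p = 0.0045), and Col6a2 by 1.90 ± 0.24, or 3.74-fold (limma, adjusted p = 0.0020). From E12.5 to E13.5 the difference of Col6a1 was 0.94 on slide 1 and 0.84 on slide 2. For Col6a2 it was 0.89 on slide 1 and 1.06 on slide 2. Neither was called for that day alone (limma, adjusted p = 0.13 and 0.087). The genes are neighbours on chromosome 10. Col7a1, whose product forms the anchoring fibrils under epithelia, changed by 0.51 ± 0.21 and was not called.

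Sequence upstream of collagen genes was taken from RefSeq (GRCm38.p6), as the 250 bases before a transcript start. Windows were found for 27 of the 34 genes, 30 windows in all. A script searched both strands for 4 short motifs, namely the TATA box TATAAA, the CCAAT box, the GC box GGGCGG and ACAAAG, a core bound by SOX proteins. The TATAAA motif was in 4 of the 30 collagen windows and in 12.4% of 32851 windows of all genes. CCAAT was in 12 and in 33.85%, GGGCGG was in 19 and in 32.7%, and ACAAAG was in 1 and in 16.5%. A match describes letters in the window, not a bound site. The windows of the neighbours Col6a1 and Col6a2 are shown because their transcripts rose side by side, and capitals mark motif matches (CCGCCC is GGGCGG on the other strand).
Col6a1 (chr10:76726045-76726294, minus strand): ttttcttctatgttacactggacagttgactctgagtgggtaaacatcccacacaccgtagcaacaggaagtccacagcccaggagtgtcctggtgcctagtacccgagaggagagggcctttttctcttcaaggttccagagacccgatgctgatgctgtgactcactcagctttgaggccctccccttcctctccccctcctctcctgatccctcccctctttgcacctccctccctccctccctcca
Col6a2 (chr10:76623631-76623880, minus strand): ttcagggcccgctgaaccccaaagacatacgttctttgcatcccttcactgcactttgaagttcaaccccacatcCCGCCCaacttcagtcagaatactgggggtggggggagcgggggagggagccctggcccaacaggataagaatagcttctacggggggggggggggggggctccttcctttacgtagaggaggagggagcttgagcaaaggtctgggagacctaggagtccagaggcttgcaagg
The Col6a1 window held 0 matches of the 4 motifs, and the Col6a2 window held 1, a GC box. A second listed start of Col6a2 lies inside the transcript that begins at this one, and its window is not shown.

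The deepest falls in the family were in type IX, the FACIT collagen that coats type II fibrils. Of the 5 FACIT genes, Col9a1 and Col9a2 fell, Col16a1 rose, and Col9a3 and Col14a1 were not called. Among all genes tested, 17% were called lower and 17.9% higher over the span. Col9a1 read -0.61 and -0.75 at E12.5, -2.02 and -1.87 at E13.5, -4.44 and -3.56 at E14.5, and -3.86 and -4.33 at E15.5. Each of the first 3 stages lay below the one before without overlap, and the E14.5 and E15.5 arrays overlapped. The fall over the span was -3.42 ± 0.32 on the log2 scale, or 10.7-fold (limma, adjusted p = 0.00069). Col9a2 read 3.07 and 3.17 at E12.5, 2.30 and 2.22 at E13.5, 0.86 and 0.84 at E14.5, and 1.18 and 1.15 at E15.5. Its E12.5 arrays were highest, the E14.5 arrays lowest, and no stages overlapped. Col9a2 fell by 1.95 ± 0.16 on the log2 scale, or 3.86-fold (limma, adjusted p = 0.00047).

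Both chains were lower at E13.5 than at E12.5 on each slide. Col9a1 differed by -1.41 on slide 1 and -1.12 on slide 2, and Col9a2 by -0.77 on slide 1 and -0.94 on slide 2. For that day alone Col9a2 was called and Col9a1 was not (limma, adjusted p = 0.043 and 0.096). Col9a3, the third chain of the same trimer, read 3.04 and 2.69 at E12.5, 3.04 and 3.04 at E13.5, 1.44 and 2.65 at E14.5, and 2.05 and 1.14 at E15.5. The 4 arrays of E12.5 and E13.5 lay above the other 4, but the duplicates of E14.5 and of E15.5 were far apart. The difference of Col9a3 over the span was -1.27 ± 0.46 and was not called (limma, adjusted p = 0.072). Col16a1, a FACIT collagen of fibrils in many tissues, read 3.12 and 3.20 at E12.5, 3.44 and 3.48 at E13.5, 3.94 and 3.81 at E14.5, and 4.32 and 4.69 at E15.5. It rose by 1.34 ± 0.19 (limma, adjusted p = 0.0033), with each stage above the one before. Col14a1, which binds the surface of type I fibrils, was lower at E13.5 than at E12.5 by -0.71 ± 0.20 and differed by -0.26 ± 0.20 over the span. Neither difference of Col14a1 was called.

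Markers of the nephric duct and mesonephros, tissue that lies against the gonad, moved in the same comparison. Of 6 that passed, 3 fell and 1 rose over the span, beside 17% called lower and 17.9% higher among all genes tested. Lhx1, a transcription factor of the duct, fell by 5.65 ± 0.18. Their summed level was 3.90 to 4.33 at E12.5, 1.71 to 2.05 at E13.5, 1.22 to 1.75 at E14.5 and 1.09 to 1.15 at E15.5. Their part in the fall of Col9a1 and Col9a2 was not tested.

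The windows before the starts of Col9a1 and Col9a2 are shown because these transcripts fell furthest among the collagens. RefSeq lists a pair of starts for Col9a1, and capitals again mark motif matches.
Col9a1, upstream start (chr1:24177360-24177609, plus strand): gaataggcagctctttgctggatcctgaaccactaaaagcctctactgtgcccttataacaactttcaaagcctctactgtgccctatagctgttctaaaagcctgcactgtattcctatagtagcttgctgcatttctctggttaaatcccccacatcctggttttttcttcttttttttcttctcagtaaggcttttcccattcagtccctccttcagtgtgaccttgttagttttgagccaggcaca
Col9a1, downstream start (chr1:24194953-24195202, plus strand): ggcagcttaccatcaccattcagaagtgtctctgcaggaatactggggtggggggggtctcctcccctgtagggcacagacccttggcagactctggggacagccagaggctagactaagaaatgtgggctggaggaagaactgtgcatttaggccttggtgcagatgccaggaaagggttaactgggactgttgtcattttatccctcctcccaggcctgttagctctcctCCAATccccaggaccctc
Col9a2 (chr4:121039316-121039565, plus strand): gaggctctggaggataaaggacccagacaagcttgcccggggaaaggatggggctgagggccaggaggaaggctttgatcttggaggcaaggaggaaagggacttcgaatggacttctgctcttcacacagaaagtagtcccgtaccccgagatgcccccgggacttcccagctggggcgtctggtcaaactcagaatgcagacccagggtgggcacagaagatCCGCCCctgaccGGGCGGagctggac
The window of the upstream Col9a1 start held 0 matches, that of the downstream start held 1 CCAAT box, and the Col9a2 window held 2 GC boxes, 1 on each strand. None of the 3 held ACAAAG or TATAAA. The array does not tell transcripts from the Col9a1 starts apart.

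Type IV collagen was represented by all 6 of its chains. The chains Col4a1 and Col4a2 form the network found in nearly every basement membrane. Col4a1 read 3.54 and 3.50 at E12.5, 3.24 and 3.07 at E13.5, 3.07 and 3.64 at E14.5, and 3.49 and 3.31 at E15.5. Col4a2 read 3.16 and 3.10 at E12.5, 2.97 and 2.82 at E13.5, 2.44 and 3.58 at E14.5, and 3.45 and 2.92 at E15.5. The E14.5 values of both genes fell on either side of their E12.5 values, and array 1 was the lower one in both. Over the span Col4a1 differed by -0.12 ± 0.23 and Col4a2 by 0.06 ± 0.39, and neither was called in any comparison. The duplicate gap of Col4a2 reached 1.14 at E14.5, so at this spread a moderate change of Col4a2 would not have been detectable.

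Of the 4 chains of more specialised basement membranes, Col4a3 and Col4a6 were called over the span, beside 34.8% of all genes tested. Col4a3 and Col4a4 are known from kidney filtration membranes, where they join Col4a5, and Col4a6 joins Col4a5 around smooth muscle and some epithelia. Col4a3 rose by 1.13 ± 0.34 over the span (limma, adjusted p = 0.044), from a level near background. With normexp its difference was -0.0168. Col4a4 differed by -0.30 ± 0.17 and Col4a5 by 0.36 ± 0.22, and neither was called. Col4a6, given in full after its values were seen because its probes disagree, read -0.65 and -0.81 at E12.5, -0.94 and -0.84 at E13.5, -2.11 and -2.10 at E14.5, and -2.30 and -2.25 at E15.5. The 4 arrays of slide 3 lay more than 1 unit below the 4 earlier arrays, with almost no spread. Col4a6 fell by 1.55 ± 0.17 over the span (limma, adjusted p = 0.0012) by this probe.

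Col4a5 and Col4a6 are neighbours on chromosome X and are read away from each other, with listed starts 1343 bases apart. From E13.5 to E14.5 they differed in sign, by 0.67 for Col4a5 and -1.22 for Col4a6. Their windows are shown for that reason.
Col4a5 (chrX:141475169-141475418, plus strand): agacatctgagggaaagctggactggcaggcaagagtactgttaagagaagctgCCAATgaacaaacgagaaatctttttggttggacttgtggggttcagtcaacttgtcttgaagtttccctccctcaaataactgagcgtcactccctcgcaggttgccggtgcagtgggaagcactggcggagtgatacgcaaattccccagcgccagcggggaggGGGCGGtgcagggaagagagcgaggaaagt
Col4a6 (chrX:141474077-141474326, minus strand): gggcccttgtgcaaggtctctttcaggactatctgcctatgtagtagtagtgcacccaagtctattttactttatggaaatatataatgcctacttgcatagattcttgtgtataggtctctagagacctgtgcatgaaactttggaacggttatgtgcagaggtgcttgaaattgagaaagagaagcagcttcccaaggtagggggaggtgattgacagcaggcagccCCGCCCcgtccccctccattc
The Col4a5 window held 1 CCAAT box and 1 GC box, and the Col4a6 window held 1 GC box. Col4a1 and Col4a2, neighbours on chromosome 8, are also read away from each other, and their listed transcripts overlap at their starts. Their changes differed by less than their standard errors in every comparison.

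Endothelial markers were examined beside the basement membrane genes. Of 7 that passed, 3 fell and 0 rose over the span, beside 17% called lower and 17.9% higher among all genes tested. Their summed level was 18.3 to 18.5 at E12.5, 11.6 to 11.6 at E13.5, 8.98 to 9.25 at E14.5 and 8.42 to 8.69 at E15.5. Col18a1 and Col15a1 encode multiplexins, proteoglycan collagens of basement membranes, and Col18a1 is the source of the fragment endostatin. Col18a1 read 6.36 and 6.68 at E12.5, 5.91 and 6.04 at E13.5, 5.23 and 5.02 at E14.5, and 4.80 and 5.13 at E15.5. The E12.5 arrays were highest, the E13.5 arrays next, and all 4 arrays of slide 3 lower still. Col18a1 fell by 1.55 ± 0.22, or 2.94-fold (limma, adjusted p = 0.0028). Col15a1 rose by 0.72 ± 0.20 (limma, adjusted p = 0.033). The Col15a1 call was lost for most left-out arrays and was kept in 8 of 12 other alternatives. The part of the endothelial markers in the fall of Col18a1 was not tested.

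The 4 transmembrane collagens had positive differences over the span and 2 were called, beside 34.8% of all genes tested. Col17a1 is a component of hemidesmosomes, which anchor epithelial cells to the basement membrane. It read -2.65 and -2.88 at E12.5, -2.47 and -2.36 at E13.5, -1.61 and -2.02 at E14.5, and -0.83 and -0.41 at E15.5. The stages followed in order without overlap, and the rise of 2.14 ± 0.24, or 4.42-fold, was the largest increase among the collagen genes (limma, adjusted p = 0.0013). Col13a1, found at sites of cell adhesion and at the neuromuscular junction, read 0.98 and 1.36 at E12.5, 1.78 and 1.98 at E13.5, 2.90 and 2.62 at E14.5, and 2.79 and 3.18 at E15.5. It rose by 1.82 ± 0.24, or 3.52-fold (limma, adjusted p = 0.0024), and its E14.5 and E15.5 arrays overlapped. Col23a1 differed by 0.47 ± 0.20 and Col25a1 by 0.41 ± 0.42, and neither was called. Skeletal muscle markers also rose over the span, 3 of 6 that passed, beside 17.9% of all genes tested called higher. Their summed level was 2.18 to 2.57 at E12.5 and 7.99 to 8.33 at E15.5. Their part in the rise of Col13a1 was not tested.

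Type VIII collagen forms hexagonal lattices in vessel walls and the cornea, from the chains Col8a1 and Col8a2. Col8a2 read 0.28 and 0.01 at E12.5, 0.50 and 0.70 at E13.5, 1.89 and 1.58 at E14.5, and 1.99 and 2.49 at E15.5. The arrays of slide 3 lay above all earlier ones, and the rise was 2.10 ± 0.25, or 4.28-fold (limma, adjusted p = 0.0016). Col8a1 moved by 0.52 ± 0.24 from E12.5 to E13.5, fell by 1.08 ± 0.24 from E13.5 to E14.5 and differed by -0.71 ± 0.24 over the span. Only the middle step of Col8a1 was called. Col26a1, a collagen described from testis and ovary, differed by 0.26 ± 0.34 over the span, with duplicates 0.39 to 0.66 apart at each stage.

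Stage by stage, few collagen calls fell on the steps that can be read within slides. From E12.5 to E13.5, 1 of the 34 genes was called, with 3.91% of all genes tested called. That gene was Col9a2, which fell by 0.85 ± 0.16 (limma, adjusted p = 0.043). The Col9a2 call on this step was lost whichever of the 8 arrays was left out, and in limma with the array number as a replicate block its adjusted p was 0.097. Of 13 alternatives other than leaving out an array, 8 kept the call. Among those was limma with slide as a fixed block (adjusted p = 0.048). The unadjusted p was under 0.05 for 8 of the 34 (23.5%) and for 16.9% of all genes tested. Col6a1 and Col6a2 were among those 8, on the higher side, and Col9a1 on the lower side, at -1.26 ± 0.32.

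From E13.5 to E14.5, across slides, 8 of the 34 were called, 4 higher and 4 lower. Of all genes tested, 12.4% were called, 6.37% higher and 6.08% lower. Col5a3 rose by 1.31 ± 0.28, Col8a2 by 1.14 ± 0.25, Col11a2 by 0.88 ± 0.19 and Col3a1 by 0.67 ± 0.17. The adjusted p of Col3a1 in limma was 0.0499896 and lay at the threshold. Col9a1 fell by 2.05 ± 0.32, Col9a2 by 1.41 ± 0.16, Col4a6 by 1.22 ± 0.17 and Col8a1 by 1.08 ± 0.24. Leaving out either E13.5 array reduced the 8 calls to 0, and leaving out array 1 of E14.5 to 1.

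From E14.5 to E15.5, within slide 3, limma called 0 of the 34 collagen genes at an adjusted p under 0.05, with 0.646% of all genes tested called. At an unadjusted p under 0.05, 9 of the 34 (26.5%) stood out, all higher, beside 9.51% of all genes tested. The smallest adjusted p was 0.11, for Col17a1 with a difference of 1.20 ± 0.24. Col5a3 followed in size with 1.07 ± 0.28. Both E15.5 arrays lay above both E14.5 arrays for 16 of the 34 genes and below them for 1. Over all genes tested those shares were 19.5% and 16.9%. The median collagen difference was 0.26, beside 0.01 over all genes tested. With arrays scaled to their median in place of the 75th percentile, these medians became 0.12 and -0.13. Such a scaling shifts every gene equally, so the distance between the medians could not change and is no test of it.

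**Figure D3:**
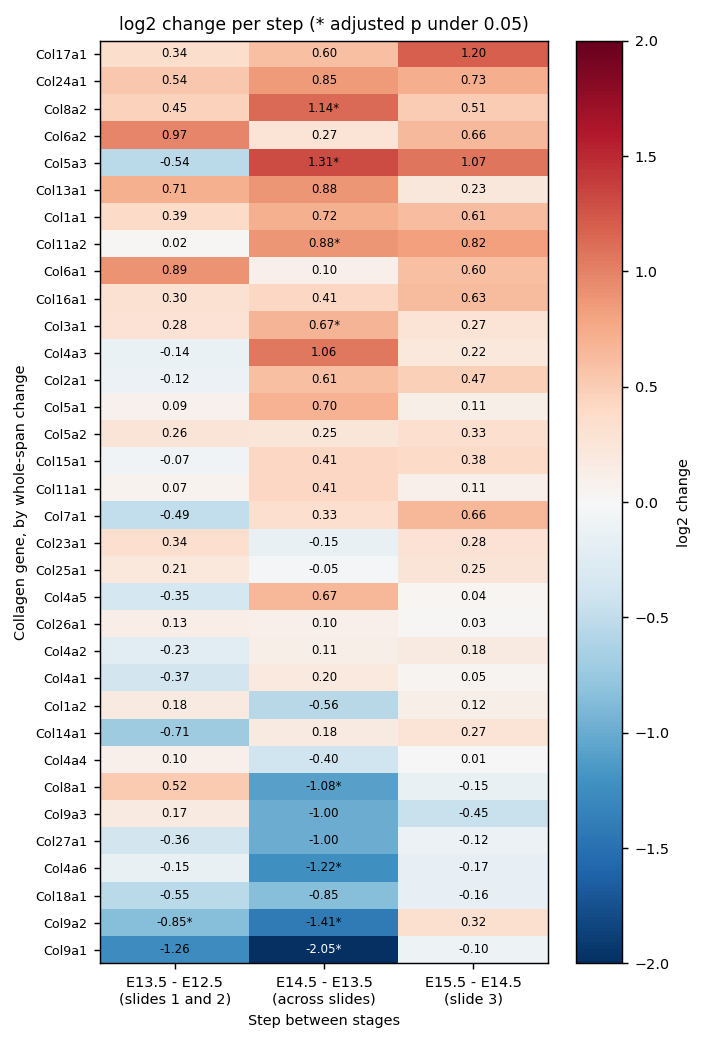
Change of each collagen gene over each step between stages (columns; colour and number are the log2 difference of stage means, rows sorted by whole-span change). Asterisks mark called genes: 1 in the first step, 8 in the middle step, which runs across slides, and 0 in the last.

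Chains that build one trimer were set side by side. Col1a1 minus Col1a2 rose by 1.97 over the span, since Col1a1 rose and Col1a2 was not called. The Col1a1 signal was below that of Col1a2 at E12.5 (means 4.64 and 6.33) and above it at E15.5 (6.35 and 6.07). Relative to E12.5, Col1a1 minus Col1a2 was 0.19 and 0.22 on the E13.5 arrays, 1.60 and 1.36 at E14.5 and 1.84 and 2.10 at E15.5. Most of this rise thus appeared at the change of slide. Col8a1 minus Col8a2 shifted by -2.80 and Col4a5 minus Col4a6 by 1.90. Col4a3 minus Col4a4 shifted by 1.43, Col9a1 minus Col9a2 by -1.47 and Col11a1 minus Col11a2 by -1.13. Pairs that kept closer together were Col6a1 minus Col6a2 at -0.31, Col4a1 minus Col4a2 at -0.18 and Col5a1 minus Col5a2 at 0.06. These differences of changes were not tested.

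**Figure D4:**
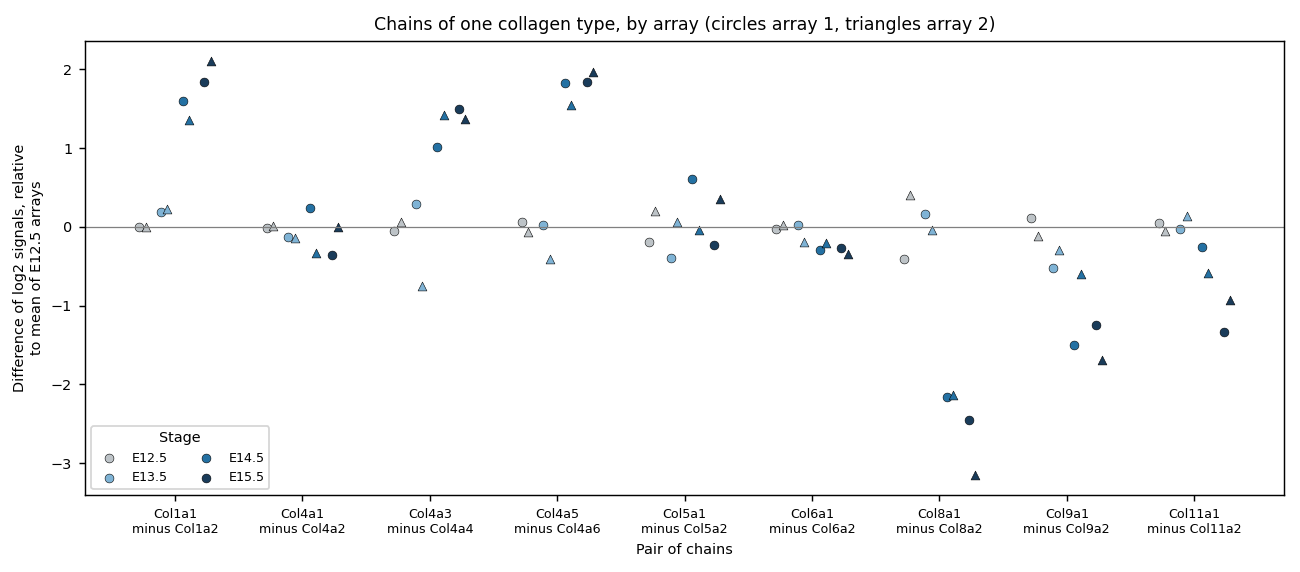
Difference between the log2 signals of paired collagen chains on each array, relative to the mean of the E12.5 arrays (y axis; circles array 1, triangles array 2; shade gives the stage). Col1a1 minus Col1a2 and Col4a5 minus Col4a6 rise at E14.5, Col8a1 minus Col8a2 drops, and Col6a1 minus Col6a2 stays near 0.

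Probes of one gene did not always move alike, and this bears on some of the calls. The 34 genes had 16 members with more than 1 probe above the filter, and the values above are from the brightest. A second probe of Col2a1 changed by -3.88 over the span where the brightest changed by 0.96, and its E12.5 duplicates were far apart, at 0.23 and 2.60. For Col11a2 the second probe changed by -1.77 against 1.71, and for Col4a6 by 1.22 against -1.55. The Col4a6 probes moved in opposite directions on all 4 arrays of slide 3. The second probes of Col5a1 and Col11a1 changed by -0.60 and -0.82 against 0.90 and 0.59. For these 5 genes the direction depends on the probe, and which transcripts each probe reads was not examined.

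Apart from Col4a2, the other genes with more than 1 probe above the filter held their direction across those probes. The other probes of Col1a1 changed by 2.03 and 0.57, beside 1.72. Second probes changed by 1.82 for Col17a1, -1.97 for Col18a1, 0.86 for Col3a1, 0.81 for Col13a1, 1.45 for Col24a1 and 1.99 for Col15a1. For Col23a1 and Col25a1 they changed by 0.07 and 1.88, beside 0.47 and 0.41 by the brightest probes. The second probes of Col4a1 and Col4a2 changed by -0.26 and -0.48, beside -0.12 and 0.06, so the sign of Col4a2 also differed between its probes. Second probes below the filter changed by -0.37 for Col16a1, -0.04 for Col5a3, -0.003 for Col4a3 and -0.30 for Col14a1. The brightest probes of these genes changed by 1.34, 1.84, 1.13 and -0.26. Col6a1, Col6a2, Col8a2, Col9a1 and Col9a2 each had 1 probe.

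**Figure D5:**
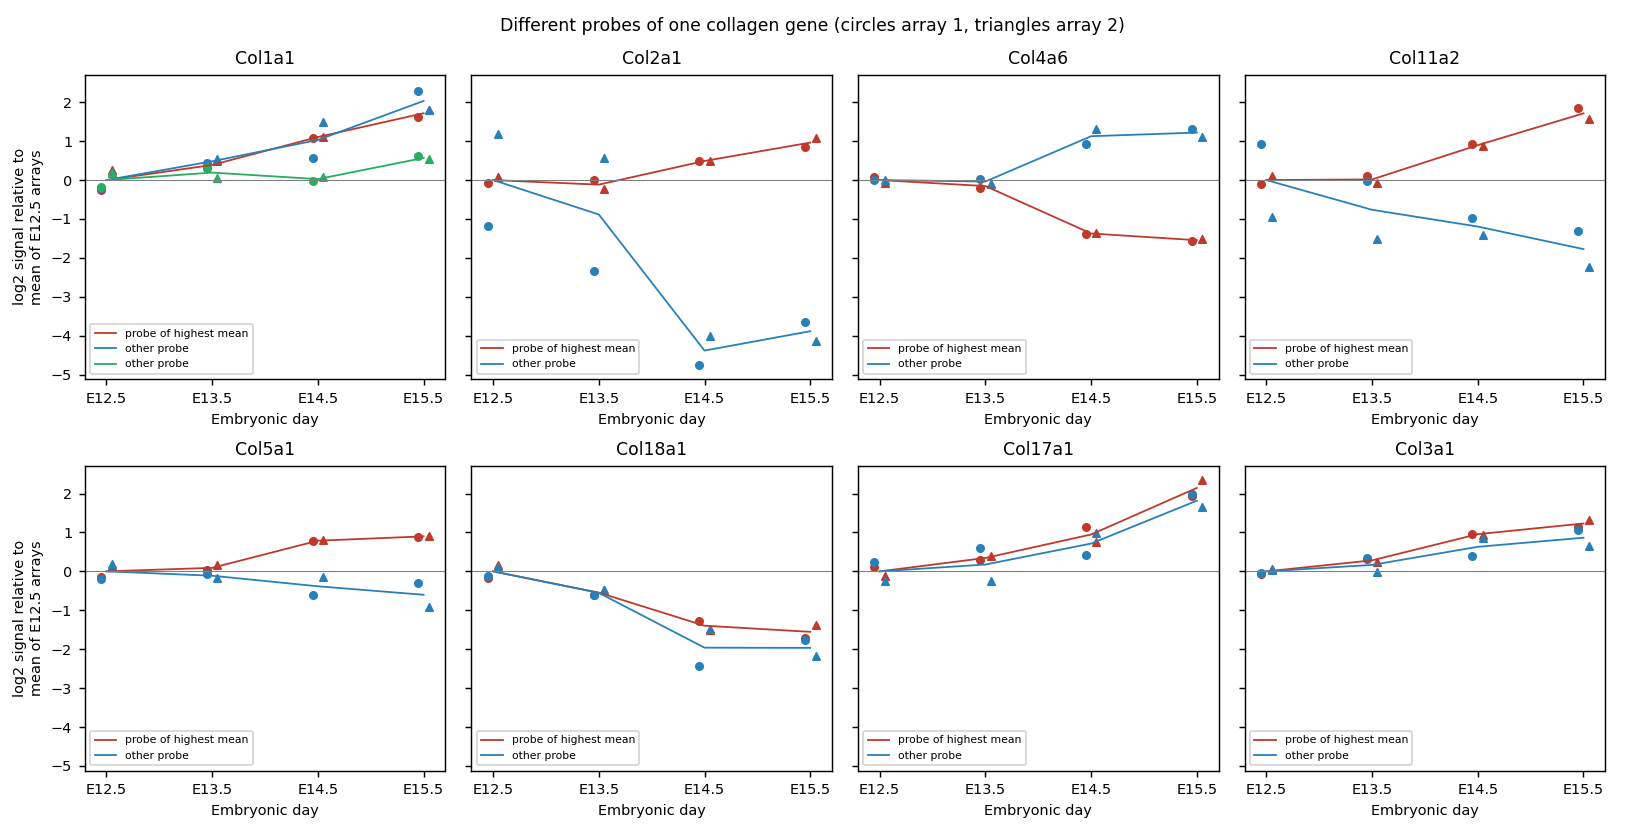
Log2 signal of every probe of 8 collagen genes on each array, relative to the mean of that probe on the E12.5 arrays (circles array 1, triangles array 2, lines stage means; red is the brightest probe). Probes of Col1a1, Col3a1, Col17a1 and Col18a1 run the same way, and those of Col2a1, Col4a6, Col11a2 and Col5a1 diverge.

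Collagen also needs enzymes and partners, and 67 genes in 5 lists were followed beside the chains. Over the span 17 of them rose and 6 fell, which is 34.3% called, near the 34.8% of all genes tested. Among 21 genes of folding and modification in the endoplasmic reticulum, 2 rose and 3 fell. P4ha1, P4ha2 and P4ha3 encode subunits of the prolyl hydroxylases that stabilise the helix. P4ha2 rose by 1.52 ± 0.29, while P4ha1 fell by 0.93 ± 0.17 and P4ha3 by 1.40 ± 0.41. P4ha3 was dim, at -5.73 and -4.97 at E12.5 and -6.22 and -7.28 at E15.5, so the size of its fall is uncertain. P3h4, a protein of the endoplasmic reticulum that takes part in collagen modification, fell by 1.02 ± 0.23. Serpinh1, the collagen chaperone HSP47, differed by 0.25 ± 0.20 and was not called. Among 10 genes of trimming and cross-linking, 2 rose. These were Adamts2, which removes the amino-terminal propeptide of fibrillar collagen, at 1.03 ± 0.21, and Lox, the oxidase that starts cross-links, at 1.30 ± 0.23.

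Proteins that bind collagen fibrils showed the most calls upward, 7 of 16, with a median of 0.87. Of all genes tested, 17.9% were called higher over the span. The 7 were the small leucine-rich proteoglycans Aspn, Ogn, Prelp, Kera, Lum and Dcn and the matricellular protein Thbs2. Aspn was not well above background at E12.5, and by E15.5 it had risen at least 17.3-fold. Ogn rose by 3.45 ± 0.25, Thbs2 by 2.0 ± 0.26 and Prelp by 1.72 ± 0.31. On the step from E12.5 to E13.5, within slides, Aspn, Ogn and Dcn rose and Tnc fell by 1.10 ± 0.21. Those were the 4 calls among the 67 genes on that step (5.97%, beside 3.91% of all genes tested). There were 8 on the next step (11.9%, beside 12.4%) and 0 on the last (0.646% of all genes tested). On the last step, the unadjusted p of limma was under 0.05 for 6 of the 67 (8.96%), beside 9.51% of all genes tested.

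Among 8 collagen receptors, Ddr1, a receptor kinase, rose by 1.62 ± 0.36 and Adgrg1, an adhesion receptor that binds type III collagen, rose by 1.17 ± 0.25. Of 12 genes of collagen breakdown, 4 rose and 3 fell, beside 17.9% called higher and 17% lower among all genes tested. Ctsk, a protease that cuts the collagen helix, rose by 1.54 ± 0.23, and the metalloprotease Mmp9 by 1.21 ± 0.29. The largest change was in Mmp15, a membrane-bound metalloprotease, which fell by 2.27 ± 0.29. Timp2, a metalloprotease inhibitor, fell by 1.77 ± 0.26. Mmp11 and the inhibitor Timp4 also rose, and the inhibitor Timp1 also fell, so proteases and inhibitors were found on both sides.

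Markers of stromal cells moved over the same span as the fibrillar and type VI collagens. The counts of markers below stand beside 34.8% of all genes tested called over this span, 17.9% higher and 17% lower. Of 8 peritubular and smooth muscle markers, 4 rose and 0 fell, and their median change was 1.55. The differences were positive for 5 and negative for 3. Tagln, Des and Smtn were the negative ones, down to -0.82, and were not called. Acta2, smooth muscle actin, rose by 2.05 ± 0.19 and Cnn1 by 3.56 ± 0.21. The summed level of these 8 was 20.4 to 64.7 at E12.5, 42.5 to 77.8 at E13.5, 49.3 to 58.8 at E14.5 and 64.8 to 66.5 at E15.5, so the sums overlapped between stages. The 7 interstitial progenitor markers summed to 36.8 to 37.0 at E12.5 and 48.0 to 55.8 at E15.5, with 2 higher and 2 lower. Fetal Leydig cell markers were higher for 7 of 7. Osteoblast markers rose for 4 of 6. The other 2, Sp7 and Ibsp, differed by -1.71 ± 0.85 and -1.67 ± 0.53 and were not called, and neither was well above background on any E15.5 array. Of the 6, 3 were above background on both E12.5 arrays and 4 on both E15.5 arrays. Not all of the 4 that rose were thus detected on both arrays at the start. The summed level of the 6 stayed between 0.163 and 0.551 on every array. Of 5 erythroid markers, 4 fell and 1 rose, with a summed level of 133 to 150 at E12.5 and 7.60 to 10.2 at E15.5. Of 7 germ cell markers, 4 fell and 2 rose, and of 4 macrophage markers 3 rose. Sertoli cell markers rose for 2 and fell for 1 of 9, and coelomic epithelium markers rose for 2 and fell for 1 of 5. The part of all these cells in the collagen changes was not tested.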

How the data were processed

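The deposited scanner files give the intensity of every spot, unlogged. Per the file headers, Agilent Feature Extraction (9.1.3.1 for E12.5 and E13.5, 9.5.3.1 for E14.5 and E15.5) had subtracted background and had not scaled the arrays to each other. Version 9.5 is named in the submitters' processing notes. The authors also deposited 1 column of values for each stage, in which a probe is given as a linear ratio to an unstated centre. It served only to compare directions.

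The 41174 probes were matched by unversioned RefSeq accession to symbols (GRCm38.p6): 22951 had 1 symbol, 0 several and 18223 none. Spots of a probe were averaged on the log2 scale without outlier-marked spots, and each array's 75th percentile was subtracted; these log2 values were computed from the deposited intensity. Of 28188 probes above the filter, the brightest per gene was used, giving 21986 genes. All 8 arrays entered 1 fit in R 4.3.3 with limma 3.58.1 (lmFit, eBayes), with no block, 4 residual degrees of freedom and 2.58 more from moderation. P-values were adjusted over all genes tested. The number of arrays limits the precision. The fit was tested on simulated data.

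Array values are printed in full for the 12 called members with the largest whole-span change and for Col1a1, Col1a2, Col2a1, Col3a1, Col4a1, Col4a2 and Col9a3. Col4a6 and Col16a1 were added after their values were seen. The collagens and all gene lists were chosen with earlier results of these data known. Same-numbered arrays shared a slide at E12.5 and E13.5, where their deviations correlated at r = 0.65. Across the 4 stages the numbers were not taken to pair samples, since r was -0.59 between E14.5 and E15.5. A fold written as "at least" sets a stage below background at its own signal or at the dimmest signal marked well above background, whichever is higher. The files hold no mean signal, so normexp (offset 50) used the median signal. Alternatives in scaling, background, filter, probe choice, blocks and left-out arrays are given in the closing section.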

Additional observations from a re-analysis of the deposited data

How the results depend on the processing

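For the collagen genes, the main count of calls was 1 from E12.5 to E13.5, 8 from E13.5 to E14.5, 0 from E14.5 to E15.5, 19 from E12.5 to E15.5 and 18 over all stages. With normexp these became 0, 0, 0, 9 and 3. In that setting 3 spots with background above 1000 set the fit of 1 array, and replacing them, an alternative chosen after seeing the data, gave 2, 11, 1, 21 and 20. From E12.5 to E13.5 the count was 0 with median scaling, with no filter, with the array number as a replicate block, with only the arrays compared, and without any array (0 to 0). From E13.5 to E14.5 it was 14 with quantile scaling, 4 with median scaling, 3 with no filter, 4 with the replicate block, 2 with only the arrays compared, and 0 to 5 leaving out an array. Whole-span calls ran from 15 to 22 and calls over all stages from 13 to 20 when an array was left out; the replicate block gave 18 and 17. Pairing the E14.5 and E15.5 arrays crosswise gave 0 collagen calls and 158 over all genes tested. For the 67 processing genes the main counts were 4, 8, 0 and 23. Normexp gave 0 for the first and second steps and 5 for the span, and replacing the spots gave 2, 8 and 24. The first step gave 2 with median scaling, 1 with no filter, 0 with only the arrays compared and 1 to 4 leaving out an array. The second step gave 5 with median scaling, 0 with no filter, 5 with the replicate block, 1 with only the arrays compared and 0 to 7 leaving out an array. The span gave 8 to 24, with 8 without E15.5 array 2. Single genes reversed as follows: Col11a2 to -0.56 from E13.5 to E14.5 with normexp, Col11a2 to -0.0298 and Col2a1 to -1.46 over the span with the mean of all passing probes, and Col4a3 to -0.0168 over the span with normexp, with or without replaced spots. With normexp and the spots replaced, Col11a2 differed by 0.41 from E13.5 to E14.5, which was not called. The mean of probes includes the divergent second probes, and the other causes were not tested. In the authors' deposited table all called collagen changes (1, 8 and 19) had the same sign. Over all 34 genes, 29, 33, 24 and 32 had the same sign in the 3 steps and the span. That table covers the same replicates, so it is not an independent check. Dim probes such as Col4a3 limit what these arrays resolve.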
